A study of Mus musculus with 4 samples.

Results

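Fos summits inside the longest genes of the mouse genome were counted in colonic epithelium. A summit is the base at which the authors' peak caller placed the top of a local rise in Fos signal. A very long gene was taken as an autosomal protein-coding gene of at least 300 kb, and a member as a summit inside such a gene and more than 1 kb from the start or end of every protein-coding gene. By this rule 10308 of the 178981 summits were members. There were 533 very long genes, and 475 of them held a member.

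The series profiled Fos by CUT&Tag in scraped colonic mucosa of wild-type mice, labelled as colonic epithelium. There were 2 libraries of mice that had recovered from colitis and 2 of healthy controls, all with 1 batch label. The colitis mice had dextran sodium sulfate (DSS), which injures the epithelium of the colon, at 1 to 1.5% in their drinking water. They went through 3 cycles, each 7 days on and 10 off, and tissue was taken 22 days after these had ended. Colons of both groups were held in 4 mM EDTA for 30 min before scraping, and the labels give no sort of the cells. Peaks alone do not measure expression, so the labelled cell type was not checked here by marker transcripts. The data used here were 1 peak list, deposited for the series as a whole, with no values per library. Whether all 4 libraries entered it was not given in the sources used here, so which of the mice the values describe is unknown. Recovered and healthy colon therefore could not be compared, no value below has a replicate error, and the intervals given (95%, exact Poisson for counts and Wilson for shares) cover counting error only. They also treat the several summits of 1 region as independent.

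Fos pairs with Jun proteins to form AP-1, a leucine zipper factor that growth signals, injury and inflammation induce, and that binds mostly at enhancers. In CUT&Tag an antibody tethers the transposase Tn5 to the protein, which cuts and tags the DNA nearby. Most very long genes owe their length to large introns, which can hold many enhancers and internal starts of transcription. Many of them encode adhesion molecules, receptors and channels of neurons, while others are used by epithelia. No library of a control antibody was used here, so Tn5 cutting of open chromatin without Fos was not measured.

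Sequence could be shown where a member fell in the window around an annotated start of transcription, which RefSeq gives for GRCm38.p6, the assembly called mm10. The motif searched was the AP-1 site TGANTCA, which is its own reverse complement, so a match on one strand is a match on the other. It was found in 7.84% of all 31396 windows of 300 bases. Of the 39 windows at internal starts of the very long genes that held a summit, 3 held the motif, and all 3 are shown, with the motif in capitals. Vav3 encodes a guanine nucleotide exchange factor of cell signalling, Palld the actin scaffold palladin and Creb5 a leucine zipper factor of the CREB family. Each sequence is the 250 bases before an internal start, read 5′ to 3′ on the strand of the gene.
Vav3, chr3:109573757-109574006, plus strand: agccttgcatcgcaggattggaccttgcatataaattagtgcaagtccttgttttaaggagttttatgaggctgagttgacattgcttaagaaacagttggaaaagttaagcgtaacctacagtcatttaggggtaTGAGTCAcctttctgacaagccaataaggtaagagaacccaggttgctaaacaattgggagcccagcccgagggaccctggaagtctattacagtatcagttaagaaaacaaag
Palld, chr8:61591140-61591389, minus strand: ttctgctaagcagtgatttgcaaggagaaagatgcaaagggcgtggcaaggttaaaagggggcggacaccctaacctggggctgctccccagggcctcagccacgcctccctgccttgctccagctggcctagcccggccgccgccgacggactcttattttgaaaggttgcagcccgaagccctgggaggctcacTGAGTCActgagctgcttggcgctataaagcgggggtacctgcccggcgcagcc
Creb5, chr6:53573124-53573373, plus strand: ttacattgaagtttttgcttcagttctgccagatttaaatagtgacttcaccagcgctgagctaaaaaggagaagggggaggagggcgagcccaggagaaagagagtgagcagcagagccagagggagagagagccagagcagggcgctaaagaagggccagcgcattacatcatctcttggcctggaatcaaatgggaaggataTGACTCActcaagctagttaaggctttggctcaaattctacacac
Those internal starts lay 234 kb, 312 kb and 286 kb from the annotated 5′ ends of Vav3, Palld and Creb5. The summit stood 3 bases before the start in Vav3 (fold 31.5) and 2 bases before it in Creb5 (fold 5.77). In Palld it stood 45 bases past the start (fold 24.1), just outside the printed stretch. The motif was 108, 96 and 40 bases from the summit in Vav3, Palld and Creb5, so none of these summits stood on the motif. The Palld window held a further summit, 215 bases before the start (fold 23.1) and 164 bases from the motif.

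A strong summit at an internal start of a dense gene is shown next, together with starts of long noncoding RNAs (lncRNAs) nested in other very long genes. These sequences were chosen after their values were seen. Nr3c2 encodes the mineralocorticoid receptor, which drives sodium uptake in the distal colon. Its window held no TGANTCA, and the capitals mark the 11 bases around the summit, 108 bases before a start 4.25 kb inside the gene. Gm30284 starts inside Prkce, the gene of protein kinase C epsilon, and Gm52770 inside Babam2, a subunit of a BRCA1 complex. Their whole windows of 300 bases are given, with the motif in capitals, and 5 of the 38 nested lncRNA windows with a summit held it. Some of these 38 windows overlap. Of all lncRNA windows with a summit, 177 of 1670 held the motif, and of all lncRNA windows 9.25%.
Nr3c2, chr8:76902080-76902329, plus strand: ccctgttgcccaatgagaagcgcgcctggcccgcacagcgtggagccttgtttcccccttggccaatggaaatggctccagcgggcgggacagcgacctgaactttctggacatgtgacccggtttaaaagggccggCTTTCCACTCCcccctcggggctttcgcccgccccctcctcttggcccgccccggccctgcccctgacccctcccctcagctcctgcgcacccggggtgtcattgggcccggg
Gm30284, chr17:86444938-86445237, minus strand: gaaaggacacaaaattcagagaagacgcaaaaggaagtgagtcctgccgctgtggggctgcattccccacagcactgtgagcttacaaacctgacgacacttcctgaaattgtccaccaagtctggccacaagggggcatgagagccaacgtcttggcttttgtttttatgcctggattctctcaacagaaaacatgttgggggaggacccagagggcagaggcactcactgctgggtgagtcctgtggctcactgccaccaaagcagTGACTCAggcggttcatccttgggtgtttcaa
Gm52770, chr5:31998809-31999108, minus strand: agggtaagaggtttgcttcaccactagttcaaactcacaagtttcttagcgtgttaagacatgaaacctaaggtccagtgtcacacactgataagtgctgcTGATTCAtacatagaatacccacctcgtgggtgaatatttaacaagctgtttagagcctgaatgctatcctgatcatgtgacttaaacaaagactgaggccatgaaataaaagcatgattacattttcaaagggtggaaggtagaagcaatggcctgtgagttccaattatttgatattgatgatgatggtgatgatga
The summits had a fold of 138 in Nr3c2, 107 in Gm30284 and 63.7 in Gm52770. The motif lay 48 bases from the summit in Gm30284 and 49 bases from it in Gm52770.

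Very long genes carried fewer Fos summits per base than shorter genes, and those they carried were somewhat weaker. Their interiors held 3.44 summits per 100 kb (95% Poisson interval 3.37 to 3.50), against 10.3 (10.2 to 10.4) in the interiors of 6662 genes of 30 to 300 kb and 4.51 (4.47 to 4.54) in intergenic sequence. Density is counted over the bases that remain once the 1 kb zones around gene boundaries are taken out, 300.1 Mb for the very long genes. Intergenic here means outside every protein-coding gene and its boundary zones, so it includes lncRNA genes. By these pooled counts the very long genes were the sparsest of the 3 classes, below sequence outside protein-coding genes. The intervals do not overlap, but they leave out the spread between genes.

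The authors' fold is the pileup at a summit plus 1, divided by the background of 3.16 fragments per base plus 1. It had a median of 5.77 in the very long genes, against 6.25 in shorter genes and 6.25 in intergenic sequence. Summits at gene boundaries were stronger, with a median of 10.3. Of the members, 697 were among the strongest 10% of autosomal summits, those with a fold of at least 38.0. That was 6.76% of them (6.29 to 7.26), against 8.31% (8.09 to 8.55) in shorter genes and 9.02% (8.79 to 9.24) in intergenic sequence. The members lay in 7192 regions with a median width of 455 bp, against 509 bp in shorter genes and 492 bp in intergenic sequence.

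Density fell with length among the very long genes as well. It was 1.41 summits per 100 kb (1.32 to 1.50) in the 55 genes over 1000 kb, 3.15 (3.05 to 3.26) in the 161 genes of 500 to 1000 kb and 4.89 (4.77 to 5.02) in the 317 genes of 300 to 500 kb. Shorter genes reached 9.18 at 100 to 300 kb and 11.4 at 30 to 100 kb. Over the 533 genes the Spearman correlation of length with density was −0.22, given as a description of genes that share 1 peak list. The genes nearest the length limit did not all look alike. Just inside it, Zfp423, Kcnq3 and Jazf1 had 26, 1 and 20 summits, and just outside it Akap13, Atp2b2 and AW554918 had 60, 13 and 4.

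**Figure D1:**
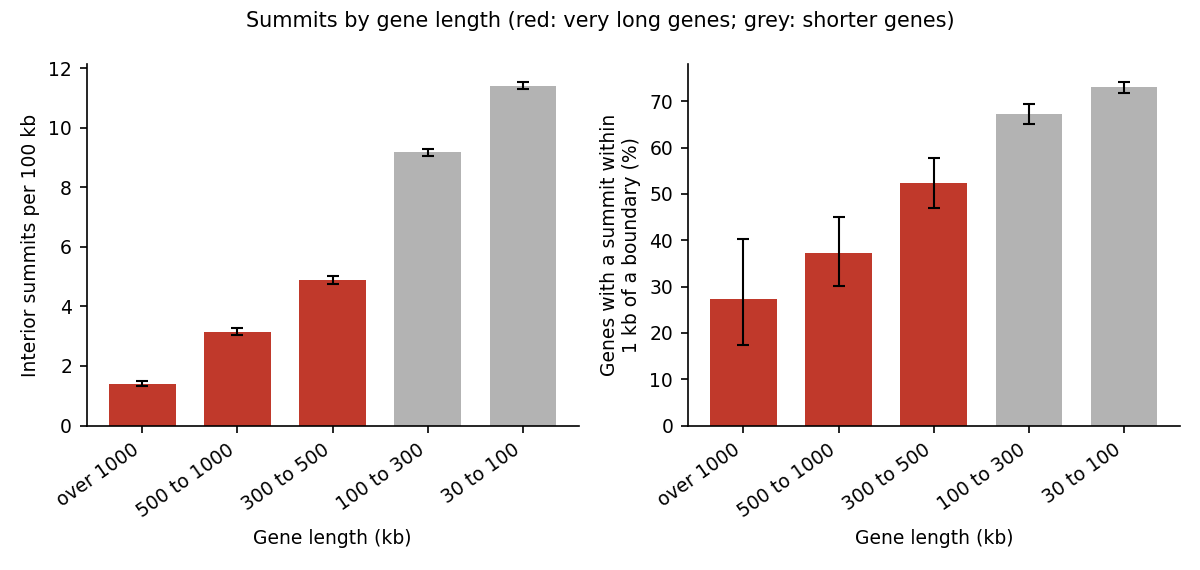
Interior summits per 100 kb (left) and the share of genes with a summit within 1 kb of a boundary, in percent (right), by gene length in kb. Red bars are the very long genes and grey bars the shorter ones. Error bars are 95% intervals for counting error, and both measures are lowest in genes over 1000 kb, at 1.41 summits per 100 kb and 27.3%.

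Individual genes differed far more than the length classes. The median gene had 2.00 summits per 100 kb, the interquartile range ran from 0.555 to 5.42, and the densest gene reached 53.0. No summit was found inside 58 genes (10.9%), 107 genes held 1 to 4, and 175 held at least 20. Empty genes were as frequent at 100 to 300 kb (10.7%) and more frequent at 30 to 100 kb (22.1%). Those shorter genes offer fewer bases in which a summit can fall, so the shares are not alike in that respect. The autosomes as a whole carried 7.35 summits per 100 kb, a value that includes summits at gene boundaries, unlike the interior densities. Of the very long genes, 97 (18.2%) were above it, against 45.6% of the genes of 30 to 300 kb. The 54 densest genes held 37.7% of the summits on 7.34% of the bases.

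Gse1, which encodes a protein of histone deacetylase complexes, stood apart at the top. It held 186 summits in 352.9 kb, or 53.0 per 100 kb (45.7 to 61.2), and that interval lies above the density of the next gene. No stretch of Gse1 longer than 16.4 kb lacked a summit, and 71 of the 186 fell within 1 window of 100 kb. Nedd4l, a ubiquitin ligase that removes the epithelial sodium channel from the cell surface, followed with 110 summits and 33.2 per 100 kb (27.3 to 40.0). Aopep, which encodes an aminopeptidase, had 109 summits (30.5 per 100 kb). The intervals of Nedd4l and Aopep overlap.

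The other 9 of the densest 12 genes have varied roles. First came Vps13d, a lipid transfer protein (28.9 summits per 100 kb), Rere, a transcriptional corepressor (27.2), Arhgef28, a guanine nucleotide exchange factor (26.8), and Foxp1, a forkhead repressor (25.4, 151 summits). The zinc transporter gene Slc39a11 had 24.4, the zinc finger factor gene Mecom 24.1 and Myo5b, the myosin that carries membrane to the apical surface of enterocytes, 24.1. The calcium release channel gene Itpr1 had 23.5 and Arid1b, a subunit of the BAF chromatin remodelling complex, 22.8. Their Poisson intervals overlap from Vps13d down to Arid1b, so this order is not resolved beyond counting error.

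**Figure D2:**
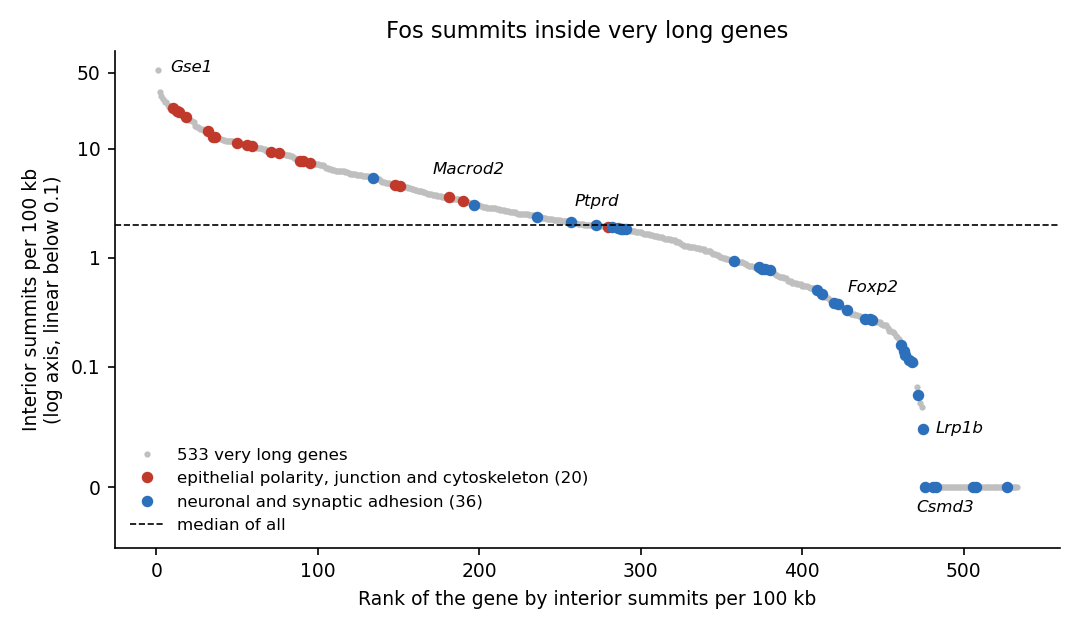
Interior Fos summits per 100 kb (log axis, linear below 0.1) for each of the 533 very long genes, ranked from densest to sparsest. Red points are the 20 genes of the epithelial polarity list and blue points the 36 of the neuronal adhesion list, the dashed line is the median of all, 2.00, and 58 genes lie at 0.

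Many of the longest genes without a summit are best known from neurons. The 12 longest of them were Csmd3 (1212 kb), Sgcz, Kcnip4, Nrg3, Dcc, Cntn4, Epha6, Cadm2, Spag16, Dgkb, Ralyl and Fgf14 (703 kb). Csmd3, Cntn4 and Cadm2 encode neuronal surface proteins, Dcc and Epha6 receptors of axon guidance, Nrg3 a ligand of the receptor Erbb4, and Kcnip4 a subunit that modulates potassium channels. A count of 0 allows a density of up to 0.305 per 100 kb in Csmd3 and up to 0.528 in Fgf14 (upper 95% Poisson limits). Their flanks, 100 kb on each side, held 0 to 2.14 summits per 100 kb.

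Among the 10 longest genes, density ran from 4.12 to 0.049 summits per 100 kb. Macrod2, which encodes an ADP-ribose hydrolase and is often broken in human colorectal tumours, had 82 summits in 1998 kb (4.12 per 100 kb, 3.27 to 5.11). Fhit, a tumour suppressor at a human fragile site, had 36 (2.24, 1.57 to 3.10), and the phosphatase receptor gene Ptprd, the longest of all at 2271 kb, had 46 (2.03, 1.48 to 2.70). Each of these 3 held more than any of the other 7. Dlg2 held 18 summits, Csmd1 and Ctnna3 held 13 each, and Cntnap2, Lsamp and Nrxn3 held 6 each. Lrp1b, which encodes a giant lipoprotein receptor, held 1 summit in 2058 kb, or 0.049 per 100 kb (0.0012 to 0.271).

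Summits inside the longest genes were unevenly placed. Ptprd had an empty stretch of 1060 kb, 46.7% of its length, and 24 of its 46 summits lay within 100 kb. In Nrxn3 the empty stretch was 1237 kb (76.7%). Macrod2 had shorter gaps, with no empty stretch longer than 268.8 kb and 5 of 19 windows of 100 kb empty. Most of its summits still lay toward its lower-coordinate end. Some shorter members were just as uneven. All 21 summits of Pde4b, a cAMP phosphodiesterase, fell within 100 kb of its 519.9 kb, as did 29 of the 30 of the ubiquitin ligase gene Hecw2 and 67 of the 79 of Itpr1.

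When the genes were taken by lists of what their products do, the list of epithelial structure had the highest median and that of neuronal adhesion the lowest. The lists name genes by textbook role, were written with earlier results of these data known, and are described by counts without a test. All 533 genes served as background, with a median of 2.00 summits per 100 kb. Of these, 58 (10.9%) were empty, the share to set beside the small counts of empty genes in each list. Of the 20 very long genes for epithelial polarity, junctions and cytoskeleton, 19 were above that median, none was empty, and their own median was 10.0. The list left out genes of related families, so these values depend on its choice. Among them Magi2 (1.21), Ctnnd2 (1.05), Ctnna2 (1.01), Dlg2 (0.913), Ctnna3 (0.829) and Ank2 (1.91) lay below the median of all 533. Of the 36 genes for neuronal and synaptic adhesion, 4 were above the median of all, 6 were empty, and their own median was 0.376.

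The epithelial list was led by Myo5b with 79 summits (24.1 per 100 kb), Frmd4b, a FERM domain scaffold, with 74 (22.5), Magi1, a scaffold of tight junctions, with 134 (22.1), and Vti1a, a SNARE of endosomal traffic, with 61 (19.7). Its sparsest members were the exocyst subunit genes Exoc6b with 15 (3.34) and Exoc4 with 14 (1.94). Between them stood Palld (14.6), the polarity gene Pard3 (13.0), the linker gene Dst (12.8) and Ank3, which anchors membrane proteins to the cytoskeleton (11.4). A summit within 1 kb of a boundary was found in 15 of the 20, against 45.2% of the 533 very long genes.

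The neuronal adhesion list was led by the teneurin gene Tenm4 with 40 summits (5.42 per 100 kb), below the median of the epithelial list. Sdk1 (3.09), Lingo2 (2.39) and Negr1 (2.13) came next. Its 6 empty genes were Csmd3, Cntn4, Cadm2, Ncam2, Pcdh7 and Lrfn5. A boundary summit was found in 3 of the 36, against the same 45.2%. No gene of this list reached the 7.35 of the autosomes as a whole, boundary summits included, while 15 of the 20 epithelial genes did.

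The lists of axon guidance, receptor and channel genes were also sparse. They are not neuronal alone, and Slit3 and Kcnma1 are in the stromal and smooth muscle list as well. The 15 axon guidance genes had a median of 0.579, with Sema6d (6.43) and Slit3 (5.30) highest and Dcc, Epha6 and Epha5 empty. The 16 glutamate and GABA receptor genes had a median of 1.27, with the GABA receptor subunit gene Gabbr2 highest at 4.89 and 4 empty. The 26 ion channel genes had a median of 0.921 but a wide range. The channel genes above the autosomal level were Kcnip1 (9.50) and Kcnh1 (7.52), and Kcnma1, the large conductance potassium channel used by colonic epithelium and smooth muscle, had 41 summits (5.77).

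The lists of transcription regulators, of kinases and related enzymes, of transporters and of RNA binding genes had medians above the background. Among 33 transcription regulators 27 exceeded the median of all genes, and their own median was 6.31. Foxp1, Mecom, Nr3c2 (75 summits, 21.7) and Maml3, a coactivator of Notch signalling (78, 18.8), led, and Ebf1, a factor of B cells and stroma (1 summit), and Zfpm2 (none) were lowest. The list of kinases, phospholipases and cyclic nucleotide enzymes had a median of 4.75 over 20 genes, which include Cdkal1 and Inpp4b, enzymes of other classes. It was led by Prkce (89 summits, 18.2) and Prkca (61, 14.9), both protein kinases C. The 15 transporters and traffic genes had 4.66, with Nedd4l and Slc39a11 first and Slc4a4, a bicarbonate cotransporter of epithelia, at 12.4. The 6 RNA binding genes had 2.70, led by Msi2 with 75 summits (19.9), whose product controls messenger RNAs of stem cells.

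Groups of other cells of the mucosa, and growth factor receptors and ligands, lay near or below the background. The 16 stromal and smooth muscle genes had a median of 1.71, with Thsd4 (12.7) and Kcnma1 (5.77) highest. The 5 leukocyte genes had 2.00, and of these Elmo1, part of a Rac activator, had 46 summits (8.92), while Arhgap15 had none. Growth factor receptors and ligands had 1.37 over 10 genes, with Erbb4, a receptor of neuregulins, at 0.186 and its ligand genes Nrg1 at 0.833 and Nrg3 at 0. The part of non-epithelial cells in these values was not tested.

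The lists also differ in gene length, with which density fell. The median length was 508 kb in the epithelial list and 967 kb in the neuronal adhesion list, and the part of length in the gap between them was not tested. The 15 genes at common fragile sites, which in humans break under replication stress, had a median length of 1574 kb and a median of 1.94 summits per 100 kb, near the background. They ran from Auts2 with 100 summits (9.06) down to Lrp1b. The 14 genes altered in human colorectal tumours ran as widely, from Mecom (24.1) and Msi2 (19.9) to Erbb4, Lrp1b and Dcc (0), with a median of 2.68 and 11 above that of all genes.

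**Figure D3:**
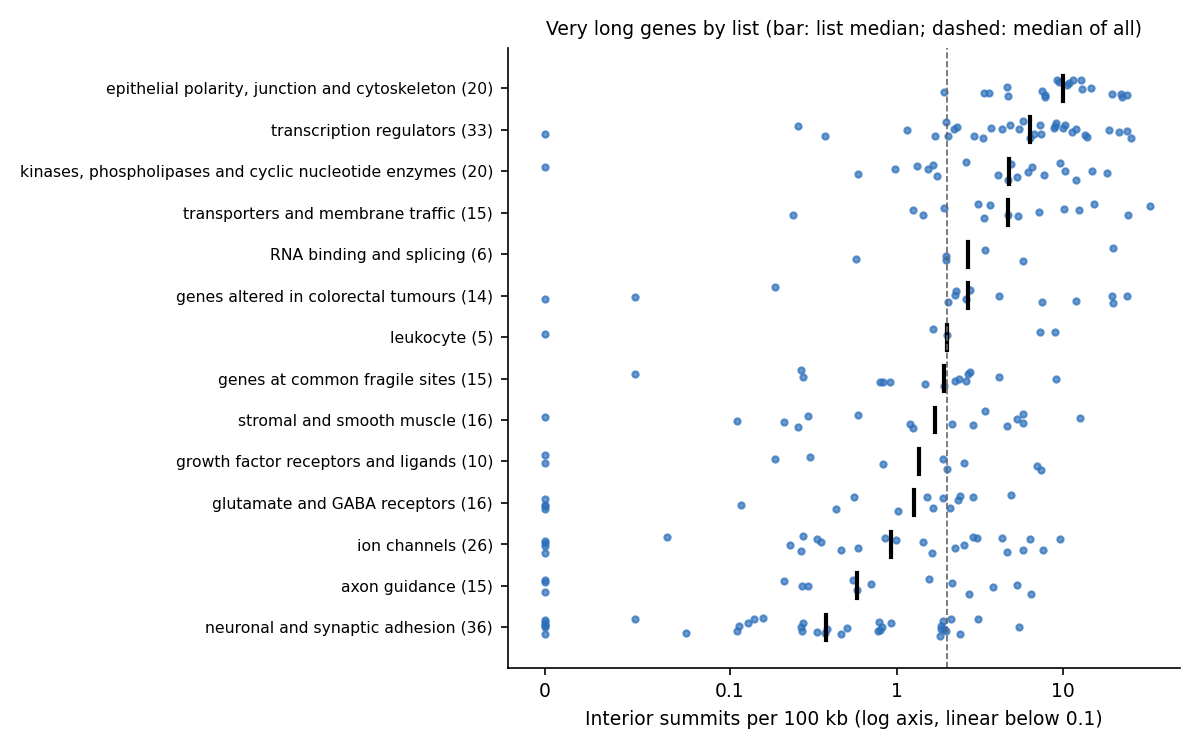
Interior summits per 100 kb (log axis, linear below 0.1) of each very long gene in 14 lists, with the number of genes in brackets. Each point is a gene, the black bar is the median of the list and the dashed line the median of all 533 genes. The list medians run from 10.0 for epithelial polarity to 0.376 for neuronal adhesion.

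Related genes could differ by more than counting error, in some pairs at similar length. Foxp1 had 151 summits in 597.4 kb (25.4 per 100 kb, 21.5 to 29.7), while Foxp2, a forkhead factor best known from brain and speech, had 2 in 540.6 kb (0.371, 0.045 to 1.34). Magi1 had 134 in 608 kb (22.1) and its longer paralog Magi2, a scaffold of synapses and podocytes, had 18 in 1485 kb (1.21, 0.719 to 1.92). Maml3 had 78 in 418.0 kb (18.8) and Maml2 had 7 in 413.0 kb (1.70, 0.685 to 3.51). In these 3 pairs the intervals of the denser and the sparser gene are far apart.

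Smaller gaps separated other relatives. Pard3 had 13.0 per 100 kb (10.1 to 16.4), against 4.59 (3.36 to 6.13) in Pard3b. Frmd4b had 22.5, against 7.74 in Frmd4a. Ank3 had 11.4, against 1.91 in Ank2, the ankyrin of heart and neurons. The receptor phosphatase genes formed a graded set, with Ptprg at 9.47, Ptprk at 7.49, Ptprm at 4.67, Ptprt at 2.29 and Ptprd at 2.03. The intervals of neighbours in this order overlap, while those of Ptprg (7.31 to 12.1) and Ptprd (1.48 to 2.70) do not. Sox6 had 7.40 (5.33 to 10.0) and Sox5 had 4.31 (3.09 to 5.84), which overlap.

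**Figure D4:**
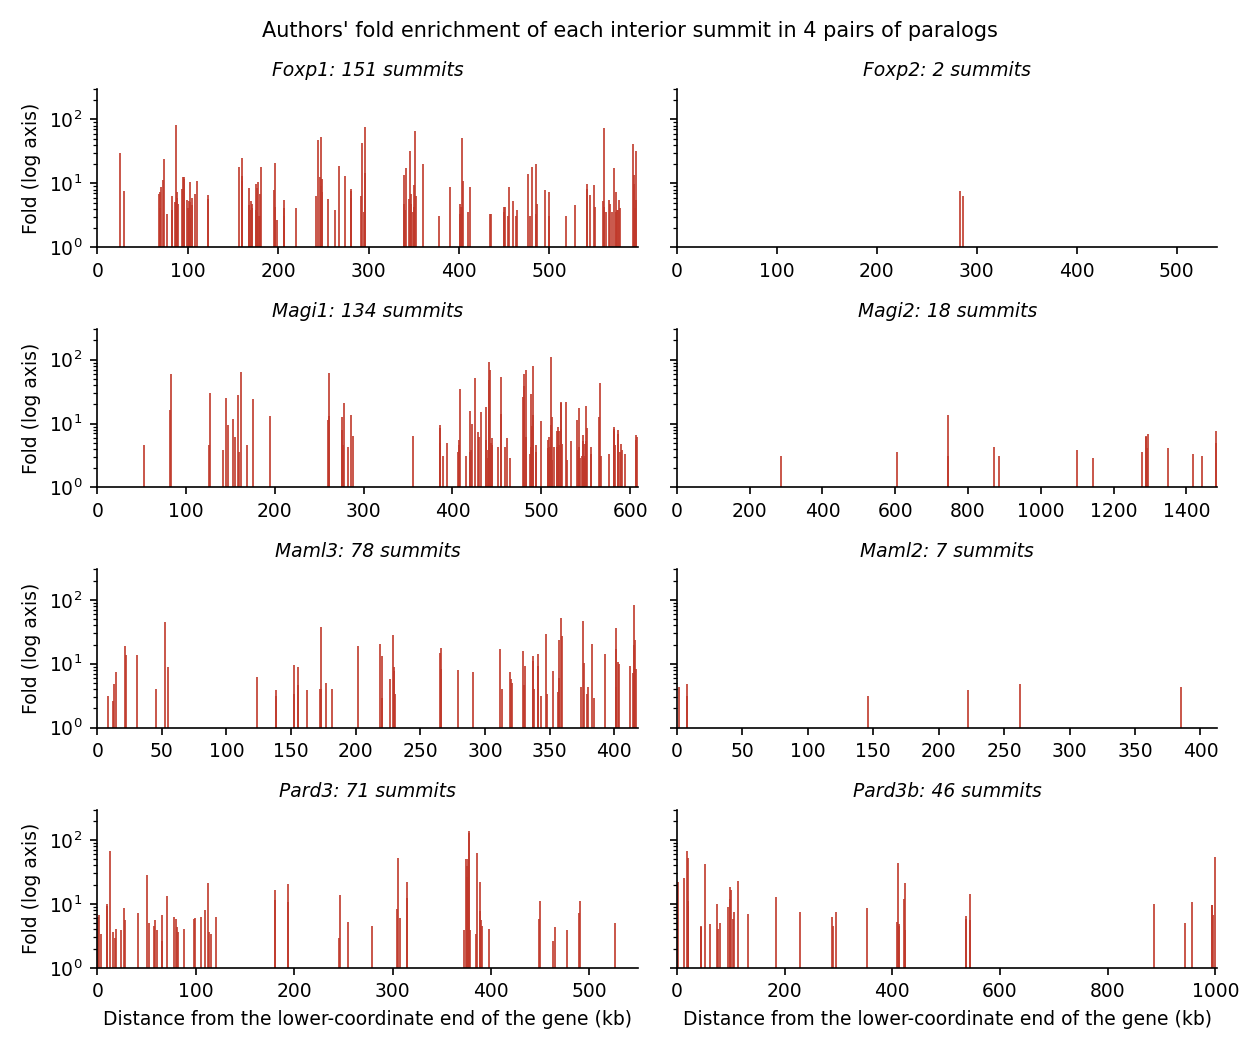
Fold of every interior summit (vertical lines, log axis) by its distance in kb from the lower-coordinate end of the gene, for 4 pairs of paralogs with the denser gene on the left. Foxp1, Magi1, Maml3 and Pard3 hold 151, 134, 78 and 71 summits, against 2, 18, 7 and 46 in Foxp2, Magi2, Maml2 and Pard3b.

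The strongest single summits lay in genes of very different density. The first 5 were in Iqsec1, an activator of ARF GTPases (chr6:90795706-90797605, fold 246, 1022 fragments), Fto, an RNA demethylase (chr8:91528348-91530396, fold 242, 1007), Gse1 (chr8:120405598-120408834, fold 237, 984), Tmtc2 (chr10:105543428-105545948, fold 233, 967) and Dst (chr1:34119826-34124425, fold 231, 960). With Poisson intervals of 960 to 1087 fragments for the first and 900 to 1023 for the fifth, their order is not resolved. All 5 lay at least 30.2 kb from any protein-coding boundary.

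A strong summit did not need a dense gene. Arhgap26 (230.2), Macrod2 (228), Frmd4b (222), Tafa1 (222) and a further site in Dst (217) completed the first 10. Tafa1, which encodes a secreted protein of the brain, held 11 summits in 544.1 kb (2.03 per 100 kb), and this one stood 69.5 kb from its nearest boundary. The strongest 10% of autosomal summits had a member in 196 of the 533 genes. Gse1 held 23, Nedd4l 17, and Prkce and Arhgap26 16 each, while Msi2 held 1 of its 75.

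The typical strength of the summits was a different property from their number. Among the 175 genes with at least 20 summits, the median fold ran from 3.13 to 14.7, and its Spearman correlation with density was 0.25. The highest median was that of Fars2, a mitochondrial tRNA synthetase (14.7, 25 summits), followed by Samd12 (12.5), the zinc finger gene Zbtb7c (11.5) and Babam2 (10.8). Ncald, Adk, Ppargc1a, Tln2, Hecw2 and Nr3c2 had 10.3, 10.2, 10.2, 10.1, 9.86 and 9.14. Fars2 reached its median with no summit above 34.6, while Zbtb7c had 11 of 53 among the strongest 10%. Gse1, the densest gene, had a median fold of 5.89, close to that of all members.

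Genes with many interior summits also more often had one at a boundary, which the choice of members did not use. A summit within 1 kb of either end was present in 241 of the 533 genes (45.2%, 41.0 to 49.5), against 63.3% of all autosomal protein-coding genes. It was present in 176 of the denser 266 genes (66.2%, 60.3 to 71.6) and in 65 of the sparser 267 (24.3%, 19.6 to 29.8). Among the 54 densest it was present in 47 (87.0%), and among the 58 without an interior summit in 10 (17.2%). A region that crosses the 1 kb line can give a summit to both counts.

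The surroundings went the same way. In the 100 kb on each side of the gene, the denser 266 genes had a median of 5.79 summits per 100 kb and the sparser 267 had 1.03. Over the 533 genes interior and flank density had a Spearman correlation of 0.60 and a Pearson correlation of 0.44, given as a description, since neighbouring sequence shares its chromatin and mappability. The flanks were denser than the interior in 286 genes (53.7%). For Foxp1 the interior had 25.4 and the flanks 4.59, for Magi1 22.1 and 4.55, and for Mecom 24.1 and 4.69, while Slc39a11 had 24.4 inside and 48.2 in its flanks.

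Along the gene, summits were somewhat denser toward both ends than in the middle, even with the boundary zones removed. For the 405 genes whose strand the start table gives, the 20% of the span at the 5′ end had 4.03 summits per 100 kb (3.84 to 4.21) and the 20% at the 3′ end had 3.90 (3.72 to 4.08), against 3.11 (3.02 to 3.20) in the middle 60%. The intervals of the 2 ends overlap. The 5′ end was the denser one beyond counting error at a boundary distance of 500 bp (ratio 1.09, 1.02 to 1.16) and with genes of at least 200 kb (1.27, 1.21 to 1.33). In the denser genes the highest values were in the first 10% of the span (9.42) and the ninth of the 10 steps (8.30). Their last 10% had 6.66, no more than the fourth step (6.80). In the sparser genes the last 10% was highest at 1.27 (1.08 to 1.48). The 20% at their 5′ end had 0.758 (0.654 to 0.873), an interval that overlaps that of their middle 60%, 0.607 (0.553 to 0.665).

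**Figure D5:**
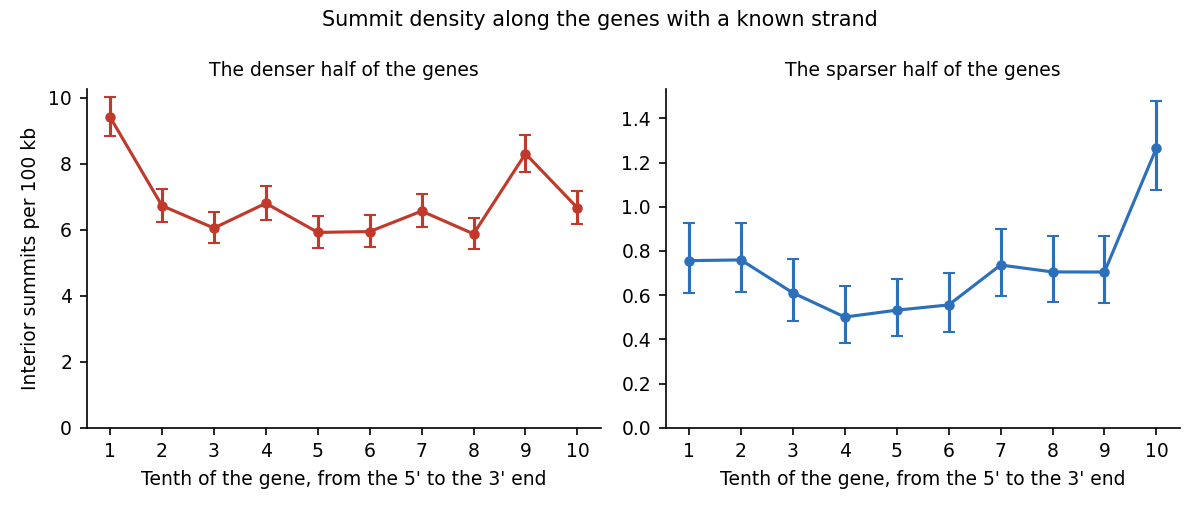
Interior summits per 100 kb in 10 equal steps from the 5′ to the 3′ end, for the 206 denser (left) and 199 sparser (right) genes with a known strand. Bars are 95% Poisson intervals, and the vertical scales differ. The first step is highest on the left (9.42) and the last on the right (1.27).

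Few members lay in the windows of annotated starts of transcription. The table listed 271 starts inside 179 of the very long genes that belong to the gene itself, and 39 of those windows held a summit (14.4%, 10.7 to 19.1), against 31.1% (26.4 to 36.3) of 334 windows at a boundary of the same class of genes and 43.2% of all 20085 protein-coding start windows. In the denser genes it was 31 of 150 (20.7%) and in the sparser ones 8 of 121 (6.61%). Starts of nested lncRNAs held a summit in 38 of 521 windows (7.29%, 5.36 to 9.85), against 14.8% (14.1 to 15.4) of all 11311 lncRNA windows. In all, 77 of the 10308 members lay in a start window. These windows cover little of the 300.1 Mb of interior, and the table matched 405 of the 533 genes. The count therefore does not show how many members belong to an internal start.

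A few of those summits reached high folds. The internal start of Adk, the gene of adenosine kinase, 23.6 kb into the gene, held a summit with a fold of 180.4 that stood 11 bases past the start. That of Mgat4c, a glycosyltransferase gene, reached 176 at 693 kb from the annotated 5′ end, in a gene of 1.84 summits per 100 kb. The cohesin subunit gene Stag1 had 107 at an internal start and 9 summits in all. The lncRNA LOC115486907 inside Pard3 had 127. The AP-1 motif was in 7.38% of the 271 internal windows, near its share in all windows.

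Of the denser 266 genes, 90 had no boundary summit. The table gives an internal start for 48 of these, and in 13 (27.1%, 16.6 to 41.0) such a start held a summit. That is close to the 16 of 53 (30.2%, 19.5 to 43.5) among denser genes with a boundary summit. The 13 included Stard13 (59 summits, 15.2 per 100 kb), Palld (57, 14.6), the neuron navigator gene Nav2 (77, 11.9), the transcription factor gene Zfhx3 (77, 11.3), Sorbs2, an adaptor of the actin cytoskeleton (29, 9.12), and Vav3 (26, 7.58). For Palld and Vav3 these were the starts whose sequences are printed above.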

How the data were processed

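Fos CUT&Tag gave 2 libraries labelled colitis recovered and 2 labelled healthy, with no number of animals stated. The submitters' processing notes name Bowtie2, MACS2 and mm10. Not given in the sources used here are versions, settings, duplicate handling, how the 4 libraries were combined and whether all were used, and depth per library is unknown. The authors deposited 1 list with a fold enrichment (a linear ratio over background), a −log10 p-value, a −log10 q-value and a score, 10 times that −log10 q cut to a whole number. The lowest −log10 q was 1.80. The files gave no filter for regions of poor mappability, and none was added. All folds were whole multiples of 0.241 within 0.05 of a step, and a Poisson −log10 p from the recovered pileup matched the deposited one within 0.01 at 100% of 167414 summits.

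Summits (1-based) were placed against the NCBI RefSeq gene table of GRCm38.p6, which is without strand and exons, so exonic and intronic summits were not told apart. Strand and start windows came from the RefSeq promoter table, which matched 405 of the 533 genes. Of the members, 25 lie in more than 1 very long gene (Gm37013, Gm38666 and Gm38667 share 14, Iqschfp and Schip1 share 11), which makes 10347 placements. The strongest 10% and all ranks use the authors' fold. Shorter genes are those of 30 to 300 kb, and their pooled density leaves out their bases inside a very long gene. The densities by gene length sum over genes, so summits and bases shared by overlapping genes count more than once there.

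The members, lists and rules were chosen with earlier results of these data known. Named genes are the 12 densest, the 12 sparsest (ties by length), the 10 longest, those of the 10 strongest summits, the 10 with the highest median fold among genes with at least 20 summits, the 4 densest and 2 sparsest of each list and any listed paralog. Other names were chosen after their values were seen. The results of 1 further list are not reported here. No test was run. Alternatives were stricter q, 1 summit per region, no wide regions, other boundary distances and gene lengths, whole spans and no overlapping genes. Counting was checked on simulated summits. Python 3.11.15, pandas 2.3.3, numpy 2.4.6, scipy 1.17.1 and matplotlib 3.10.9 were used.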

Additional observations from a re-analysis of the deposited data

How the results depend on the processing

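The epithelial polarity list had the highest median of the 14 lists given here under all 11 alternatives (5.21 to 10.1 per 100 kb). With genes of at least 500 kb it was 7.62, below that of 1 list not reported here. The neuronal adhesion list had the lowest median under all 11 (0 to 0.380). Gse1 was the densest gene under the 10 that kept it. Values outside the interval of the reported one follow. Density in very long genes was 2.50 at a −log10 q of at least 5, 1.81 at 10, 2.38 with 1 summit per region, 3.29 without regions wider than 3000 bp, 3.35 at a boundary distance of 5000 bp, 4.48 with genes of at least 200 kb and 2.46 with at least 500 kb. Its ratio to shorter genes, 0.334, was 0.316 and 0.308 at the stricter q values, 0.370 with 1 summit per region, 0.346 without wide regions, 0.325, 0.342 and 0.350 at boundary distances of 500, 2000 and 5000 bp, 0.412 and 0.265 with 200 and 500 kb, and 0.342 over whole spans. The median fold was 7.94 and 11.1 at the stricter q values and 6.01 with 200 kb. The share among the strongest 10% was 5.79% with 1 summit per region, 7.30% with 200 kb and 5.86% with 500 kb. The share of summits in the densest 10% of genes was 40.4% and 42.7% at the stricter q values, 33.7% with 1 summit per region, 35.5% with 200 kb and 41.5% with 500 kb. The difference in boundary share between denser and sparser genes, 41.8 percentage points, was 28.7 with 500 kb. The ratio of outer to inner density, 1.24, was 1.29 at a −log10 q of at least 10, 1.18 at 5000 bp, 1.18 with 200 kb and 1.34 with 500 kb. The ratio of the 5′ to the 3′ end, 1.03 with an interval of 0.968 to 1.10, was 0.939 at 5000 bp and 1.27 with 200 kb. It was also below 1 at 2000 bp (0.992) and with 500 kb (0.985), and at 500 bp it was 1.09 with an interval of 1.02 to 1.16, so its direction depends on boundary distance and gene length. The cause of these shifts was not tested. Of the values for lists and named genes, 1431 stayed within the interval of the reported one and 200 did not.

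No paired analysis was possible because the data were 1 peak list with no values per library and leaving out a library was impossible too. A gene without summits is one where none passed the authors' threshold at an unknown depth.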

Other observations

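Density inside very long genes also differed by chromosome. It was 5.92 summits per 100 kb on chromosome 18 (24 genes), 5.25 on chromosome 13 (25 genes) and 4.72 on chromosome 17 (20 genes), and lowest on chromosomes 1 (2.18, 49 genes), 15 (2.24, 22 genes) and 10 (2.25, 31 genes). On chromosome 18 it rested largely on Nedd4l, Myo5b, Arhgap26 and Zbtb7c, which held 110, 79, 152 and 53 of its 654 summits, while Dcc on the same chromosome held none.

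Of the 58 genes without an interior summit, 10 had one within 1 kb of a boundary. They were Arl15 (4 boundary summits), Thsd7a (3), Adcy2, Agmo and 2210408I21Rik (2 each), and Cadm2, Zfp804b, Cpq, Ncam2 and Gria4 (1 each). These were named after their values were seen.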
